A study of Homo sapiens with 6 samples.

Results

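STC1, STC2, SPP1 and CD44 are 4 genes of secreted tumour factors and a receptor, described here in H1299 cells with and without knockdown of CCNB1, the gene of cyclin B1. The 4 were found by their symbols among 58336 genes in the deposited tables, and all 4 passed the filter on low counts that left 17349 genes for testing. They were selected on the strong differences of STC1 and SPP1 between knockdown and mock, so every value of these 4 genes in that comparison is a description, given with no test. Stanniocalcin-1 and stanniocalcin-2, the products of STC1 and STC2, are secreted glycoprotein hormones first known from calcium balance in fish. In mammals both inhibit pappalysins, the proteases that release insulin-like growth factors from their binding proteins, and both genes are known to respond to hypoxia, STC2 also to the unfolded protein response. SPP1 encodes osteopontin, a secreted phosphoprotein of bone matrix and many carcinomas that binds integrins through an RGD motif. CD44 is a cell surface glycoprotein that binds hyaluronan and has been reported to bind forms of osteopontin.

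H1299 is an established line of human non-small-cell lung carcinoma, labelled lung adenocarcinoma, and described as mesenchymal in the growth protocol. The 3 knockdown libraries came from cells labelled CCNB1 knockdown that carried PLVT7_CCNB1, an shRNA construct per the series' design text, and the 3 mock libraries from cells labelled WT that carried PLVT7_MOCK. Stable transfectants of both kinds were selected with 1 µg/ml puromycin on cultures 14 days past confluence, and the cells were kept in 10% serum. Whether a group was a pool or a clone, and whether its libraries were separate cultures, is not given in the sources used here.

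The libraries held 28122665 to 30332989 counts, so 3 counts stood for 0.0940 to 0.106 CPM (counts scaled to a common library size with TMM factors). CCNB1 itself was at 19.9, 29.9 and 16.1 CPM in knockdown libraries 1, 2 and 3, and at 323, 305 and 294 CPM in mock libraries 1, 2 and 3, and the 3 knockdown libraries thus all carried little of the targeted RNA. Knockdown library 2 stood apart from the other two. Over all tested genes its median absolute log2 difference was 0.32 from each of knockdown libraries 1 and 3, but 0.23 to 0.26 from the mock libraries, while knockdown libraries 1 and 3 differed by 0.21 from each other. Of the markers of lung adenocarcinoma and airway epithelium, the 4 surfactant genes SFTPA1, SFTPB, SFTPC and SFTPD had at most 4 counts in any library, NKX2-1 at most 13, EPCAM at most 14 and CDH1 at most 2, whereas the simple keratins KRT8 and KRT18 were abundant. Macrophage markers, of interest because macrophages are a common source of osteopontin in tumours, summed to 0.627 to 0.897 FPKM in knockdown and 0.514 to 0.898 FPKM in mock libraries over 10 genes, and PTPRC had no count in any library. The 11 fibroblast and osteoblast markers summed to 0.448 to 0.646 FPKM in knockdown and 0.218 to 0.308 FPKM in mock libraries. FPKM is the authors' count per kilobase of gene and library size, without those factors, so small differences between libraries can turn round between the scales.

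The stretches of DNA before the RefSeq transcription starts of STC2, SPP1 and CD44 are shown because SPP1 and CD44 encode a ligand and its reported receptor that differed unequally between the groups. Each is the 250 bases before the RefSeq start (build GRCh38.p14), written 5′ to 3′ along the gene. STC2 lies on the minus strand at chr5:173328415-173328664, SPP1 on the plus strand at chr4:87975464-87975713, and CD44 on the plus strand at chr11:35138921-35139170. The annotated gene spans given further below begin upstream of these RefSeq starts, at 173329503 for STC2, 87975650 for SPP1 and 35138870 for CD44. The windows of STC2 and CD44 thus lie inside those spans, and the window of SPP1 lies partly inside. The windows are upstream of the RefSeq starts only, and whether their bases are transcribed in these cells was not tested. Capitals mark every match, on either strand, to the 7 motifs described after the sequences.
STC2: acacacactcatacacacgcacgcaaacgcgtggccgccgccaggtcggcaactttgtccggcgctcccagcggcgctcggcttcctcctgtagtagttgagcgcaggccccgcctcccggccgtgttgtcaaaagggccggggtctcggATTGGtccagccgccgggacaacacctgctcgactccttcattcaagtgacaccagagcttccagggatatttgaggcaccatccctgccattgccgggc
SPP1: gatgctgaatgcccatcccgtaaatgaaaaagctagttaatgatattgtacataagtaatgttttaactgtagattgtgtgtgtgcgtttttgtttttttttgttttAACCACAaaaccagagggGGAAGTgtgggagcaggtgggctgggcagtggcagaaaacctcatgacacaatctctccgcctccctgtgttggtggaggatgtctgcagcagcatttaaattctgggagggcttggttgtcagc
CD44: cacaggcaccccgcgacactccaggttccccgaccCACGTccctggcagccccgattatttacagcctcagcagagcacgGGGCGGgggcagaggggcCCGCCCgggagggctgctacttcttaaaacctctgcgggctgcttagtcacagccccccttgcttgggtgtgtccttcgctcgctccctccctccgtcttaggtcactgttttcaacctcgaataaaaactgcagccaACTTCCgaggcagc

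The motifs were AACCACA for RUNX factors, found in 3.65% of the 35116 RefSeq promoter windows of the same length, and ACGTG, the core of hypoxia response elements, found in 18.5%. The AP-1 motif TGANTCA was in 6.57% of windows, the ETS motif GGAAGT in 19.5%, the Sp1 motif GGGCGG in 42.6%, CCAAT in 32.0% and the TATA box form TATAAA in 10.7%. No motif matches within one promoter overlapped. The SPP1 window held the RUNX motif 143 to 137 bases before the start and the ETS motif 125 to 120 bases before it. The CD44 window held a hypoxia core, 2 Sp1 motifs and an ETS motif, and the STC2 window a single CCAAT box in reverse. The SPP1 window was 44.8% G and C, lower than the 58.0% median of all windows, against 63.6% for STC2 and 62.4% for CD44. A match here is a run of letters and not a measured binding site. The heptamer GTACTAT, which an earlier look at these data had picked from genes lower in the knockdown, was in 0 of 2, 0 of 3, 0 of 5 and 0 of 26 annotated protein-coding transcripts of STC1, STC2, SPP1 and CD44. Among 13366 tested genes with a protein-coding transcript, 11.3% carried it in at least 1. The heptamer and the members were picked from the same comparison, so nothing is read from its absence.

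STC1 was the most abundant of the 4 per length in mock cells and the one that differed most. STC1 (ENSG00000159167, chromosome 8 from 23841915 to 23854807, minus strand, GRCh38) was at 12.1, 41.2 and 11.8 FPKM in knockdown libraries 1, 2 and 3, against 94.7, 102 and 88.8 FPKM in mock libraries 1, 2 and 3. The groups did not overlap, and knockdown library 2 lay between the other knockdown libraries and the mock libraries. On the CPM scale the gene averaged 89.4 ± 70.9 in knockdown and 402 ± 23.1 in mock libraries (SD, n = 3 each). The log2 fold change was -2.17 (SE 0.44), which is 4.50-fold lower in the knockdown. Relative to the mock mean, STC1 stood at 11.9% and 12.2% in knockdown libraries 1 and 3 and at 42.6% in library 2. Without knockdown library 2 the log2 fold change was -3.06. In bulk RNA such as this, fewer cells that express a gene and less RNA per cell cannot be told apart.

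STC2, the paralogue, did not share the difference in every library. STC2 (ENSG00000113739, chromosome 5 from 173314713 to 173329503, minus strand) was at 9.48, 15.8 and 9.24 FPKM in knockdown libraries 1, 2 and 3, against 12.1, 11.9 and 16.5 FPKM in mock libraries 1, 2 and 3. Knockdown libraries 1 and 3 were below all mock libraries, while knockdown library 2 lay within the mock range, so the groups overlapped. STC2 averaged 69.7 ± 23.6 CPM in knockdown and 84.2 ± 16.5 CPM in mock libraries (SD, n = 3 each). Its log2 fold change of -0.27 (SE 0.23) was smaller than the spread between libraries, and became -0.59 without knockdown library 2.

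The balance of the 2 hormones also differed between the groups. Per length, STC1 stood at 1.28, 2.61 and 1.27 times STC2 in knockdown libraries 1, 2 and 3, against 7.86, 8.58 and 5.40 times in mock libraries. STC1 made up 61.5 ± 9.37% of the summed stanniocalcin FPKM in knockdown and 87.5 ± 2.78% in mock libraries (SD, n = 3 each). The ranges of this share, 56.0% to 72.3% in knockdown and 84.4% to 89.6% in mock libraries, did not overlap. Per length STC1 was above STC2 in all 6 libraries. In CPM, which does not divide by length, STC1 was below STC2 in knockdown library 1, at 47.8 against 55.2 CPM, and in knockdown library 3, at 49.0 against 56.9 CPM, and above it in the other libraries.

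**Figure D1:**
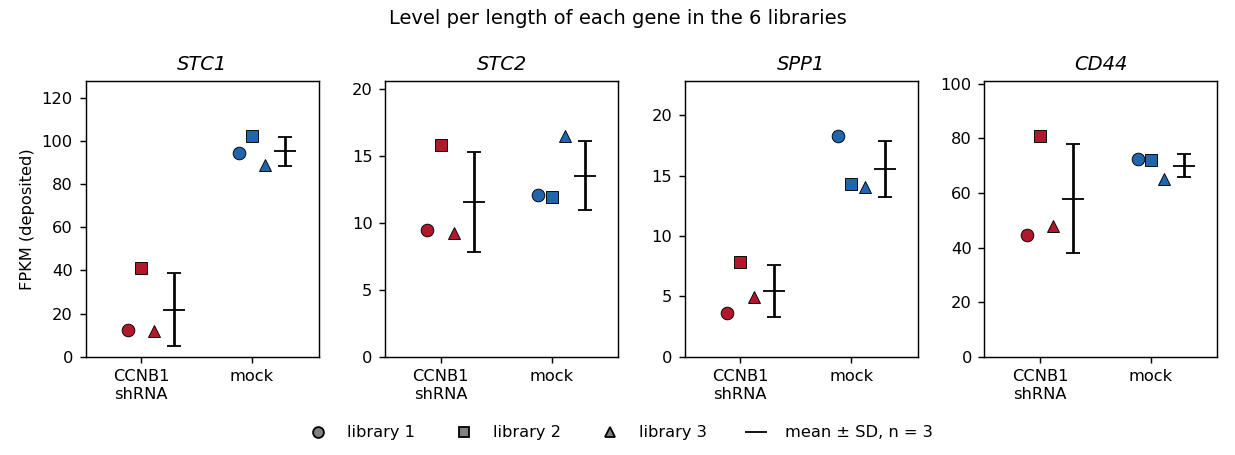
FPKM of STC1, STC2, SPP1 and CD44 in the 3 CCNB1 shRNA libraries (red) and the 3 mock libraries (blue), with symbols for library numbers and bars for mean ± SD (n = 3); each panel has its own axis from 0. The knockdown points of STC1 and SPP1 all lie below the mock points, and those of STC2 and CD44 overlap them because knockdown library 2 (square) is high.

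SPP1 was below STC1 and CD44 per length in every library, and it was lower in every knockdown library than in any mock library. SPP1 (ENSG00000118785, chromosome 4 from 87975650 to 87983426, plus strand) was at 3.65, 7.84 and 4.91 FPKM in knockdown libraries 1, 2 and 3, against 18.3, 14.3 and 14.1 FPKM in mock libraries 1, 2 and 3. The groups did not overlap, and library 2 was again the highest of the knockdown libraries. These values rest on 257 counts in the lowest library and 1253 in the highest. SPP1 averaged 12.6 ± 5.17 CPM in knockdown and 36.8 ± 6.31 CPM in mock libraries (SD, n = 3 each). The log2 fold change was -1.55 (SE 0.27), or 2.93-fold lower in the knockdown, and -1.92 without knockdown library 2. Relative to the mock mean, SPP1 stood at 21.9%, 49.4% and 31.1% in knockdown libraries 1, 2 and 3.

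CD44, the receptor, was abundant in both groups. CD44 (ENSG00000026508, chromosome 11 from 35138870 to 35232402, plus strand) was at 44.7, 80.9 and 48.0 FPKM in knockdown libraries 1, 2 and 3, against 72.6, 72.3 and 65.1 FPKM in mock libraries 1, 2 and 3. Knockdown library 2 was above every mock library and knockdown libraries 1 and 3 below every one, so the groups overlapped. CD44 averaged 572 ± 207 CPM in knockdown and 713 ± 44.7 CPM in mock libraries (SD, n = 3 each). The log2 fold change of -0.32 (SE 0.22) was smaller than the spread between libraries, and it was -0.65 without knockdown library 2. The SD in the knockdown libraries was several times that in the mock libraries. The deposited counts pool all CD44 transcripts, so the standard form and the variant forms made by alternative splicing cannot be told apart. CD44-AS1, on the opposite strand, shares 84 exonic bases with CD44 and had at most 13 counts in a library, against at least 13567 for CD44.

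Library 2 was the highest of the 3 knockdown libraries for 4 of the 4 genes. Over all tested genes library 2 was the highest of the knockdown libraries for 42.0%, and among the 8109 genes with a negative fold change for 56.0%. The 2 genes without overlap between the groups, STC1 and SPP1, were among the 8.84% of tested genes whose knockdown libraries were all below the mock libraries. In the opposite direction that share was 10.9%. Since the members were chosen by this contrast, nothing is read from their count.

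**Figure D2:**
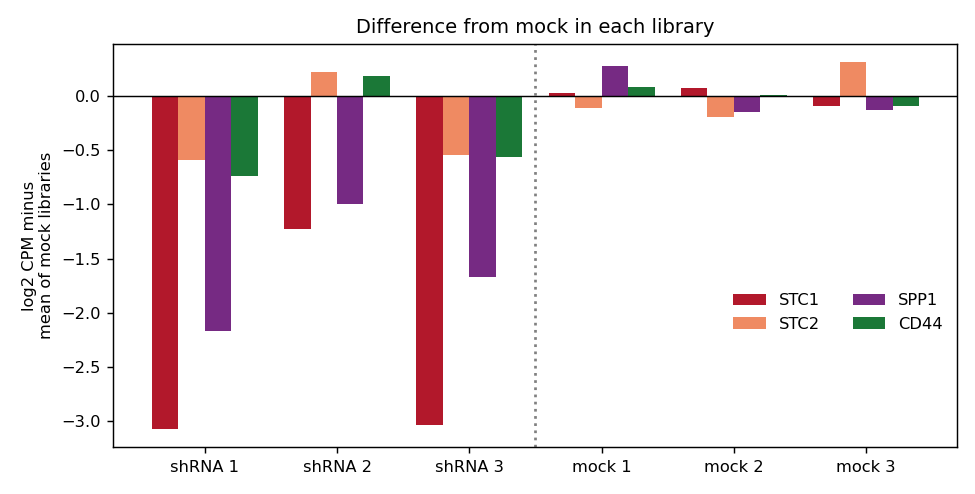
Difference of log2 CPM from the mean of the mock libraries (vertical axis) for STC1, STC2, SPP1 and CD44 (bars, by colour) in each of the 6 libraries, with CCNB1 shRNA libraries left of the dotted line and mock libraries right of it. STC1 is at -3.07, -1.23 and -3.03 in shRNA libraries 1, 2 and 3, SPP1 at -2.17 and -1.67 in libraries 1 and 3 and nearer to 0 in library 2, while STC2 and CD44 are below 0 in libraries 1 and 3 and above 0 in library 2.

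The order of the 4 genes per length differed between the groups. In each of the 3 knockdown libraries CD44 was the highest, followed by STC1, STC2 and SPP1. In mock libraries STC1 was the highest and CD44 the second, and SPP1 and STC2 followed with ranges that overlapped. By mean FPKM, STC1 ranked 2004 of 32274 genes with a count in knockdown and 378 of 30379 in mock libraries. CD44 ranked 662 in knockdown and 538 in mock libraries, SPP1 6844 and 2927, and STC2 3892 and 3365. The ratio of STC1 to CD44 was 0.342 ± 0.146 in knockdown and 1.36 ± 0.0564 in mock libraries, and that of CD44 to SPP1 10.8 ± 1.29 in knockdown and 4.55 ± 0.545 in mock libraries (SD, n = 3 each). FPKM divides by the summed exon length of each gene, 4149 bases for STC1, 6128 for STC2, 2321 for SPP1 and 10004 for CD44, so a gene whose long exons are little used reads low on this scale.

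The genes with the most similar profiles were found by the mean absolute difference, over the 6 libraries, of log2 CPM centred on the mock mean, among 10855 genes with at least 5 CPM in the higher group. For STC1 the nearest were TMEM158 (0.38 from STC1), MMP1, an interstitial collagenase (0.42), the kinase gene NEK7 (0.48), GDF15, a secreted stress-induced factor (0.49), and SPP1 itself (0.50). These genes were picked for their likeness to STC1 in the same libraries, so no test is given for them. NEK7 was at 17.2 ± 4.87 CPM in knockdown and 57.1 ± 8.57 CPM in mock libraries. TMEM158 was at 42.7 ± 37.4 CPM in knockdown and 118 ± 5.82 CPM in mock libraries, and MMP1 at 63.9 ± 71.7 and 145 ± 18.8 CPM. In knockdown library 2, MMP1 and GDF15 were 0.03 and 0.20 above the mock mean on the log2 scale, where STC1 was 1.23 below it. For SPP1 the nearest were ACOX2 (0.13), THSD4 (0.13), STEAP3 (0.18), NTSR1, the neurotensin receptor gene (0.21), and MMP14 (0.21), and STC1 ranked 145.

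STC2 and CD44 had closer neighbours, since most of their values lay near the mock mean. The nearest to STC2 were AKNA (0.06), N4BP3 (0.06) and the histone gene HIST3H2A (0.07). Among the nearest to CD44 were LAMA2, a laminin chain gene (0.03), and TUBB3, a tubulin gene (0.04). CD44 ranked 303 in likeness to STC2. STC1 ranked 10847 in likeness to STC2, whereas STC2 ranked 3055 in likeness to STC1, both at a difference of 1.20.

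**Figure D3:**
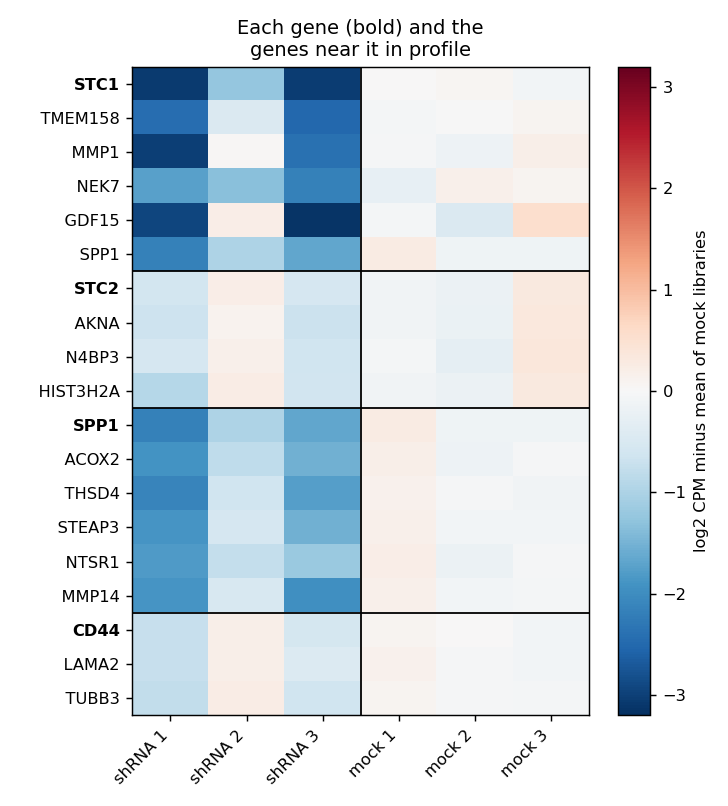
Colour gives log2 CPM minus the mean of the mock libraries for STC1, STC2, SPP1 and CD44 (bold) and genes among the nearest to each, with CCNB1 shRNA libraries left of the line and mock libraries right of it. STC1, SPP1 and their neighbours are lowest in shRNA libraries 1 and 3, and the neighbours of STC2 and CD44 are slightly above the mock mean in shRNA library 2.

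Partners, relatives and regulators of the 4 genes were tested next, as 122 genes in 10 lists, of which 97 passed the filter on low counts. The lists were written with earlier results of these data known, so nothing is read from an excess of lower genes among them. In edgeR's quasi-likelihood test 4 of 17349 genes passed an adjusted p of 0.05, or 0.0231%, and 0 of the 97 did. At an unadjusted p under 0.05, 22 of the 97 were lower and 7 higher in the knockdown, where 6.88% of all tested genes were lower and 8.14% higher, so the count of higher genes was near that of all genes. DESeq2 called 11 of the 97, all lower, and 3.25% of all tested genes, 2.05% lower and 1.20% higher. The median log2 fold change of the 97 was -0.16, against 0.02 for all tested genes, of which 46.7% had a negative fold change. Without knockdown library 2, edgeR called 33 lower and 4 higher of the 97, against 13.8% of all genes tested then, 7.58% lower and 6.24% higher. These shares of all genes are the ones to set beside the counts of each list. No partner gene is said below to have risen or fallen in the full comparison, and the values are given as measured.

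Integrins are the best known receptors of osteopontin. All 8 tested of 10 had a negative fold change (46.7% of all tested genes), with a median of -0.51. Of these 8, 0 passed in edgeR, 5 were lower at an unadjusted p under 0.05 (6.88% of all tested genes), and DESeq2 called 2 lower. ITGB1, the beta subunit of many integrins, was at 730.2 ± 265 CPM in knockdown and 1411 ± 36.9 CPM in mock libraries, with a log2 fold change of -0.95 (SE 0.22). ITGA4, an alpha subunit that binds osteopontin and fibronectin, was at 25.5 ± 1.56 CPM in knockdown and 40.2 ± 2.27 CPM in mock libraries. Unlike ITGB1, ITGA4 was no higher in knockdown library 2, at 23.8 CPM, than in libraries 1 and 3, at 25.9 and 26.8 CPM. The subunits of the classical osteopontin receptor, ITGAV and ITGB3, were at 86.7 ± 19.2 and 4.98 ± 3.25 CPM in knockdown, against 105 ± 9.59 and 8.72 ± 0.468 CPM in mock libraries. ITGB3 was at 3.60, 8.69 and 2.66 CPM in knockdown libraries 1, 2 and 3, so library 2 lay within the mock range of 8.19 to 9.07 CPM. ITGB5 was at 152 ± 34.7 CPM in knockdown and 171 ± 26.6 CPM in mock libraries, and ITGA5, the fibronectin receptor subunit, at 109 ± 23.5 CPM in knockdown and 141 ± 11.0 CPM in mock libraries. The adjusted p-values of these 6 in edgeR ran from 0.0959 for ITGA4 to 0.687 for ITGB5.

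The relatives of osteopontin and most of the enzymes that modify it had few counts, with TGM2 the exception. The 4 other genes of its family, IBSP, DMP1, DSPP and MEPE, had at most 7 counts in any library and were not tested. FAM20C, the kinase that phosphorylates secreted proteins including osteopontin, had at most 5 counts, and MMP3 and MMP7, proteases known to cleave osteopontin, at most 10 and 1. Only TGM2 and MMP9 of these 8 modifying enzymes were tested. TGM2, the transglutaminase that crosslinks osteopontin, was at 21.9 ± 3.90 CPM in knockdown and 15.2 ± 1.88 CPM in mock libraries, with no overlap (log2 fold change 0.52, SE 0.17, adjusted p = 0.211 in edgeR). For 10.9% of tested genes all knockdown libraries were above all mock libraries.

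Hyaluronan is the main ligand of CD44. Of 14 genes of its synthesis, breakdown and other receptors, 10 were tested, 5 with a negative and 5 with a positive fold change and a median of 0.02. Of these, 0 passed in edgeR or DESeq2, against 1 lower and 2 higher at an unadjusted p under 0.05. HAS2, a hyaluronan synthase, had at most 12 counts. The degrading enzyme genes HYAL2 and CEMIP2 were at 19.4 ± 2.49 and 22.8 ± 1.98 CPM in knockdown, against 23.1 ± 3.72 and 28.1 ± 0.774 CPM in mock libraries. LAYN, the gene of the hyaluronan receptor layilin, was at 7.30 ± 2.02 CPM in knockdown and 4.56 ± 0.227 CPM in mock libraries (log2 fold change 0.68, SE 0.22, adjusted p = 0.208 in edgeR). LAYN was thus the one of these named genes with higher values in every knockdown library, as 10.9% of tested genes had.

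CD44 is tied to the cytoskeleton by ezrin, radixin and moesin, is cut from the surface by membrane proteases and cooperates with receptor kinases. Of 16 such genes, 14 were tested, 10 with a negative fold change (46.7% of all tested genes) and a median of -0.11. None passed in edgeR, 5 were lower at an unadjusted p under 0.05 (6.88% of all tested genes), and DESeq2 called 2 lower. MMP14, a membrane-bound metalloprotease that can shed CD44, was at 63.9, 167 and 60.4 CPM in knockdown libraries 1, 2 and 3, against 267, 222 and 226 CPM in mock libraries 1, 2 and 3. Its groups did not overlap, as for 8.84% of tested genes in the lower direction. Its profile resembled that of SPP1 (log2 fold change -1.30, SE 0.34, adjusted p = 0.142 in edgeR). MET, the receptor of hepatocyte growth factor, was at 104 ± 14.1 CPM in knockdown and 148 ± 9.07 CPM in mock libraries. VCAN, a proteoglycan that binds hyaluronan, had a log2 fold change of -0.58 (SE 0.16), with no knockdown library above 13.4 CPM and no mock library below 15.0 CPM.

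Regulators of CD44 variant exon splicing showed no common direction. All 12 were tested, 6 with a negative and 6 with a positive fold change, and their median was 0.00. None passed in edgeR or DESeq2, against 1 higher at an unadjusted p under 0.05 (8.14% of all tested genes). That 1 was ESRP2, which had few counts: 26, 16 and 17 in knockdown libraries 1, 2 and 3, against 9, 1 and 3 in mock libraries. KHDRBS1, the gene of Sam68, was at 299 ± 47.1 CPM in knockdown and 355 ± 10.5 CPM in mock libraries. HNRNPL and PTBP1, genes of splicing repressors, were at 263 ± 16.3 and 488 ± 70.4 CPM in knockdown, against 295 ± 26.8 and 538 ± 43.5 CPM in mock libraries.

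The pappalysins and the insulin-like growth factor (IGF) axis are the known targets of stanniocalcins outside the cell. Of 12 genes, 8 were tested and none passed in edgeR, while 1 was lower and 2 were higher at an unadjusted p under 0.05 and DESeq2 called 1 lower. PAPPA, the protease gene, was at 0.910 ± 0.314 CPM in knockdown and 0.689 ± 0.139 CPM in mock libraries, near the low end of what was tested. Its substrate gene IGFBP4 was at 3.98, 5.62 and 3.33 CPM in knockdown libraries 1, 2 and 3, against 7.49, 6.70 and 7.06 CPM in mock libraries (log2 fold change -0.72, SE 0.21, adjusted p = 0.169 in edgeR). IGFBP3, the gene of another IGF-binding protein, was at 17.7, 4.20 and 11.6 CPM in knockdown libraries 1, 2 and 3, against 5.17, 4.94 and 6.09 CPM in mock libraries. IGFBP3 was thus high in knockdown libraries 1 and 3 and below all mock libraries in library 2 (log2 fold change 1.05, SE 0.40, adjusted p = 0.266 in edgeR). Knockdown library 2 also stood apart from libraries 1 and 3 over all tested genes. IGFBP6 was at 21.5 ± 3.89 CPM in knockdown and 14.5 ± 4.25 CPM in mock libraries.

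Stanniocalcin-1 is also known for effects on phosphate uptake in kidney and on mitochondrial uncoupling. Of 12 genes listed for phosphate and calcium transport, with the uncoupling protein gene UCP2 counted among them, 9 were tested. All 9 had a negative fold change (46.7% of all tested genes), with a median of -0.11. SLC20A2, STIM2, ORAI2 and STIM1 were close to 0, at -0.02, -0.04, -0.06 and -0.07, and SLC20A2 was at 0.02 without knockdown library 2. None passed in edgeR, while 2, SLC20A1 and UCP2, were lower at an unadjusted p under 0.05, and DESeq2 called the same 2 lower. SLC20A1, a sodium-phosphate cotransporter gene, was at 160 CPM, 378 CPM and 158 CPM in knockdown libraries 1, 2 and 3, against 472, 487 and 437 CPM in mock libraries. Its groups did not overlap, as for 8.84% of tested genes in the lower direction (log2 fold change -1.01, SE 0.30, adjusted p = 0.173 in edgeR). Library 2 was its highest knockdown library, as for 56.0% of tested genes with a negative fold change. UCP2, an uncoupling protein gene, was at 16.0 ± 1.15 CPM in knockdown and 24.1 ± 2.96 CPM in mock libraries. ORAI3, a calcium channel gene, was at 6.02 ± 1.46 CPM in knockdown and 8.56 ± 1.93 CPM in mock libraries.

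Among 18 hypoxia factors and targets, all tested, 13 had a negative fold change (46.7% of all tested genes) and the median was -0.18. None passed in edgeR, while 2 were lower and 1 was higher at an unadjusted p under 0.05 (6.88% and 8.14% of all tested genes), numbers too small to set this list apart, and DESeq2 called 1 lower. The 1 higher was CA9, which had few counts: 14, 24 and 24 in knockdown libraries 1, 2 and 3, against 3, 7 and 3 in mock libraries. HIF1A, the gene of the oxygen-regulated factor subunit, was at 126 ± 11.8 CPM in knockdown and 122 ± 11.7 CPM in mock libraries, and the sign of its log2 fold change, 0.05, changed when single libraries were left out. VHL, the gene that targets it for degradation, was at 58.5 ± 7.51 CPM in knockdown and 78.7 ± 9.25 CPM in mock libraries. The target ANGPTL4 was at 95.0 CPM, 219 CPM and 143 CPM in knockdown libraries 1, 2 and 3, against 287, 203 and 327 CPM in mock libraries, so its groups overlapped. SLC2A1, a glucose transporter gene, was at 282 ± 89.4 CPM in knockdown and 359 ± 47.9 CPM in mock libraries. Without knockdown library 2, edgeR called 10 of the 18 lower and 1 higher, against 7.58% and 6.24% of all genes tested then. In that fit 6 of the 8 integrin genes and 7 of the 16 transcription factors were also lower, with 0 higher.

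Of 16 transcription factors reported to act on the 4 genes, all tested, 14 had a negative fold change (46.7% of all tested genes). The median of the 16 was -0.34. None passed in edgeR, 6 were lower at an unadjusted p under 0.05 (6.88% of all tested genes), and DESeq2 called 3 lower. RUNX2, a regulator of osteopontin in bone, was at 9.12 CPM, 13.3 CPM and 7.20 CPM in knockdown libraries 1, 2 and 3, against 18.9, 19.2 and 17.5 CPM in mock libraries. Its groups did not overlap, as for 8.84% of tested genes in the lower direction (log2 fold change -0.91, SE 0.21, adjusted p = 0.118 in edgeR). Library 2 was the highest of the knockdown libraries, as for 56.0% of tested genes with a negative fold change. Any part of RUNX2 in the SPP1 values was not tested. ETV4, an ETS factor gene, was at 23.8 ± 1.69 CPM in knockdown and 37.6 ± 0.957 CPM in mock libraries, and JUN, a subunit of AP-1, at 91.0 ± 4.51 CPM in knockdown and 138 ± 32.5 CPM in mock libraries. ATF4, the factor of the amino acid and unfolded protein responses known to induce STC2, was at 219 ± 49.3 CPM in knockdown and 272 ± 38.9 CPM in mock libraries.

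**Figure D4:**
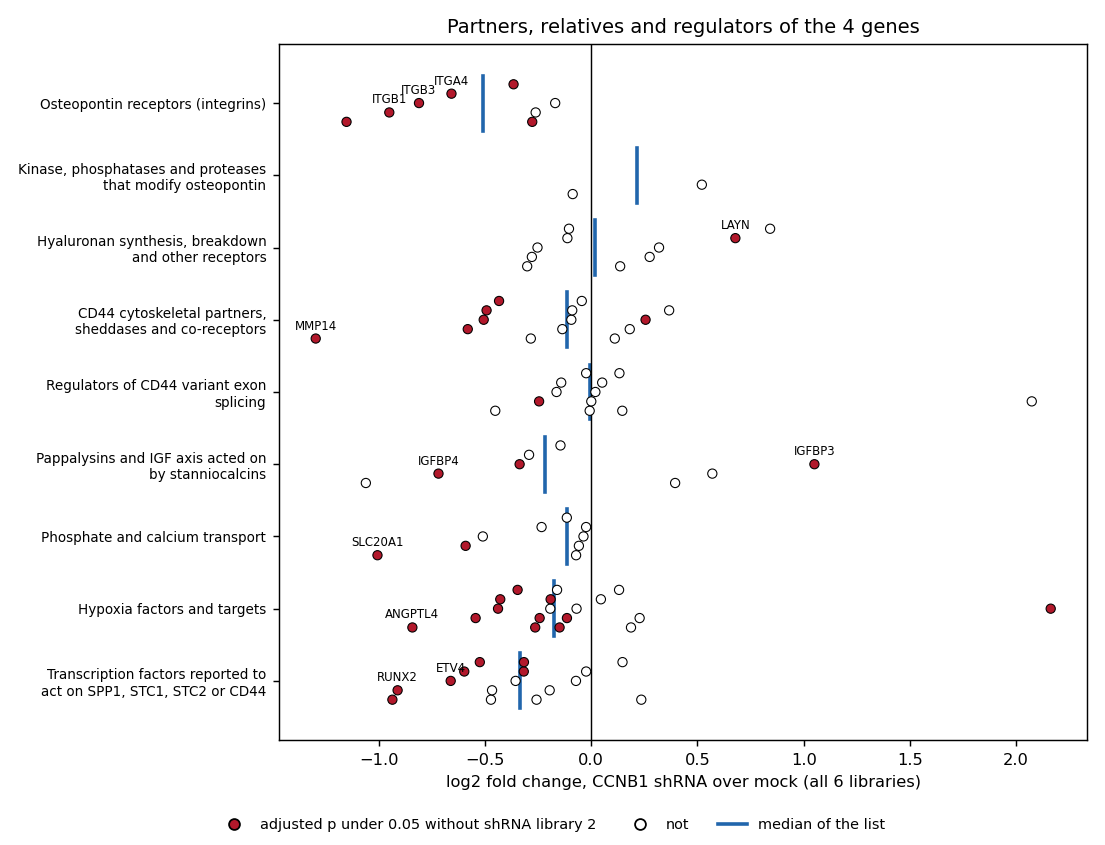
Log2 fold change of CCNB1 shRNA over mock from all 6 libraries (horizontal axis) for each tested partner gene, with lists down the page and a blue line at each list's median; red points had an adjusted p under 0.05 in edgeR when shRNA library 2 was left out, and vertical offsets only separate points. All 8 integrin genes and all 9 genes of the phosphate and calcium transport list lie below 0, as did 46.7% of all tested genes. That list counts the uncoupling protein gene UCP2, and its SLC20A2, STIM2, ORAI2 and STIM1 lie close to 0.

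The keratins KRT8 and KRT18 differed in the opposite direction, at 727 ± 244 and 564 ± 170.4 CPM in knockdown, against 336 ± 24.6 and 305 ± 21.1 CPM in mock libraries (adjusted p = 0.105 and 0.118 in edgeR). Their part in the values of the 4 genes was not tested.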

How the data were processed

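The 6 libraries were made from total RNA (NEBNext Ultra kit) and read on a NovaSeq, per the labels' protocols. The authors deposited raw counts per gene and FPKM values. The submitters' processing notes list the build GRCh38.p13 with, in no stated order or role, featureCounts 2.0.3, DESeq2, HISAT2 2.1.0 and bcl2fastq 2.20; the annotation, strand setting and treatment of multiply mapped reads are not given in the sources used here. The gene length implied by counts and FPKM equalled the exon length of GENCODE release 29 within 0.5 bases for 97.4% of 34493 genes with a count, the 4 members included, so positions are from that release. Columns were matched to samples by title, and 0 columns of other samples were present.

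The main test on counts was edgeR's (version 4.0.16, R 4.3.3; filterByExpr, TMM scaling, quasi-likelihood F test, Benjamini-Hochberg adjustment over all tested genes, threshold 0.05), knockdown over mock. Each SE was taken as log2 fold change over the root of F; log2 CPM used a prior count of 2. DESeq2 1.42.0, other scalings, no filter, the replicate block and leaving out each library were the alternatives. The test was checked on simulated data. Separate cultures are not stated for a group's libraries, and p-values then reflect only the possibly technical spread among libraries; intervals and floors cover counting error only.

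The members and lists were chosen with earlier results of these data known. Named genes were the 4 members, CCNB1, up to 3 genes per list with the smallest p and at least 5 CPM in the higher group, 11 direct partners whatever their result, and the genes nearest to each member by profile. One gene named by this rule is not reported here. Counts of genes at 0 or near it in the lists were given as well. Promoter sequences are RefSeq's, with 3 of 4 members matched. Plots were drawn with matplotlib 3.10.9, and tables made with pandas 2.3.3 and numpy 2.4.6 under Python 3.11.15.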

Additional observations from a re-analysis of the deposited data

How the results depend on the processing

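The sign of the fold change of STC1, STC2, SPP1 and CD44 was the same under all 11 alternatives, and all but 1 of the values moved by less than the spread between libraries. That 1 was STC1 without knockdown library 2, and over the fits that left out 1 library its log2 fold change ran from -3.06 to -1.88. The count of genes past the threshold, 4, was 564 in DESeq2, 1077 with no filter on low counts, 2 on library totals without TMM, and 1 to 2453 when libraries were left out in turn, with 2453 reached without knockdown library 2. The count among partner genes, 0, was 11 in DESeq2, 21 with no filter, and 0 to 37 when libraries were left out. With the replicate block it was 5 among partner genes and 162 over all genes. Same-numbered libraries had correlations of deviations of -0.19, 0.11 and 0.07, so the numbers were not taken to pair the samples, and not every library was most correlated with its own number. The cause of these shifts was not tested. The ratio of STC1 to STC2 in mock libraries, 7.28 in FPKM, was 4.93 in CPM, which does not divide by length, and in knockdown libraries 1 and 3 STC1 was above STC2 in FPKM but below it in CPM. The fold change of HIF1A reversed without knockdown library 1 (-0.062) and without mock library 3 (-0.0040), and its values over libraries left out ran from -0.062 to 0.12. With 3 libraries a group, differences as small as those of STC2 and CD44 could not be told from the spread.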
